A study of Mus musculus with 6 samples.

Results

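Acyl-CoA thioesterases split fatty acyl-CoA into free fatty acid and coenzyme A, and 10 of their genes (Acot1 to Acot9 and Acot11) were followed here in mouse hearts. Every probe that the array design names exactly for one of them was taken, which gave 14 of the 55681 probes other than controls, and 10 of the 36163 gene and transcript names of the design. The family was selected on the measured difference between the diets in these same hearts, so every value of its members is a description and no test was made of them. Total RNA came from the hearts of male C57BL/6 mice that were 4 weeks old at the start and then ate either normal diet (ND), a standard chow, or high fat diet (HFD), with 60% of kcal as fat, over 4 months. The 3 ND and 3 HFD hearts were hybridized to 1 Agilent array each in 1 colour (Cy3). Their labels name no transgene or drug and do not state the genotype. The study asked which transcripts differ in the heart between the diets. A high fat diet and a standard chow can differ in more than their fat, so what was compared is the whole diet.

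The type I thioesterases Acot1 to Acot6 are close paralogues with an alpha/beta hydrolase fold, and the type II enzymes, among them Acot7 to Acot9 and Acot11, share the so-called hotdog fold. The enzymes differ by compartment, with Acot1 in the cytosol, Acot2 and Acot9 in mitochondria, and Acot3 to Acot6 and Acot8 in peroxisomes. In a heart that burns mainly fatty acids they take part in the balance between acyl-CoA, free fatty acid and free coenzyme A, none of which was measured on these arrays. Several genes of the type I group are textbook targets of the fatty acid sensor PPAR alpha.

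The 6 type I genes lie side by side on chromosome 12, where their 9 probes span 117.9 kb from chr12:85334071 to chr12:85452010 (mm9) in the order Acot2, Acot1, Acot4, Acot3, Acot5 and Acot6, all read from the plus strand. Because these genes arose as copies of each other, the probe letters were compared. Every member probe has 60 bases and differed by at least 19 edits from any other probe of the array, and the longest run shared by 2 member probes was 9 bases. The transcripts of the paralogues were not used here, so whether a probe also binds a sister transcript was not tested. A probe of Acot5 and a probe of Acot3, each with a forward frame free of stop codons, are printed as the letters behind their values (mm9). They come from different places of their transcripts, so they do not measure how far the gene copies differ:
Acot5, chr12:85416634-85416693, plus strand: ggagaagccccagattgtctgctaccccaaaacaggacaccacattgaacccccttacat
Acot3, chr12:85399468-85399527, plus strand: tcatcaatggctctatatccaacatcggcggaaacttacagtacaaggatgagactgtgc

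The 250 bases before the transcript start (RefSeq, GRCm38.p6) are printed for Acot1 and Acot2, which lack a half-site of the PPAR alpha motif, and for Acot4 and Acot5, which hold it. PPAR alpha binds as a pair with RXR to direct repeats of AGGTCA. Capitals mark the half-site AGGTCA or its reverse complement TGACCT. Of the 10 members, 9 had an entry in the table, with 12 windows in all, and Acot6 did not.
Acot1, chr12:84009252-84009501, plus strand: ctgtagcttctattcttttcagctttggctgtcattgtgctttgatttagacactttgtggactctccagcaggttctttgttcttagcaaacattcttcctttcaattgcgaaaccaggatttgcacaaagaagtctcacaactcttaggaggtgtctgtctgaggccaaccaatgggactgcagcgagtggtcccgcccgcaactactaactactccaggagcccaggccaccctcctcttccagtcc
Acot2, chr12:83987611-83987860, plus strand: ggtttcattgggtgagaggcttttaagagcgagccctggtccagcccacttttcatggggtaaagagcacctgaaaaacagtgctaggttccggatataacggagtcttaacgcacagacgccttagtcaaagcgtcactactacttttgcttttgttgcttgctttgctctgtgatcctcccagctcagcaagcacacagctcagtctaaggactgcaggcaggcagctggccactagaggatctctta
Acot4, chr12:84038129-84038378, plus strand: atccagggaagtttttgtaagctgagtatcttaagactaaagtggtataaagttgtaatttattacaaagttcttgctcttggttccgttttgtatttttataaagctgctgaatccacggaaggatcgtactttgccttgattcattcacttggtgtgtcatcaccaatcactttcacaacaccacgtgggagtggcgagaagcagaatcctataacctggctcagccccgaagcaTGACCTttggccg
Acot5, chr12:84069074-84069323, plus strand: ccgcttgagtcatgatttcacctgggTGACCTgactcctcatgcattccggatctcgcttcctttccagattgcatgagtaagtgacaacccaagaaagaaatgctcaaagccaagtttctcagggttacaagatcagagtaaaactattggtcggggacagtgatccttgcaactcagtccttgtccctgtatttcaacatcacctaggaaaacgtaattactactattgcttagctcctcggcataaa
In these windows the half-site was found in Acot4 and Acot5 only, searched on both strands, while 14.0% of the 32851 promoter windows of the table held it. The full direct repeat (DR1, AGGTCA followed by any base and AGGTCA again) was in none of the 12 member windows and in 0.0335% of all windows. With up to 2 mismatches it was found once, in Acot4, 13 bases before the start and overlapping the half-site, against 3.24% of all windows. The TATAAA box was in the windows of Acot4 and Acot9, against 12.4% of all windows. Windows of different members differed by at least 127 edits of 250 and shared no run longer than 11 bases. A match describes letters only, and a missing match says nothing about sites elsewhere.

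Levels are given as log2 of the background-subtracted intensity minus the log2 of the 75th percentile of the same array, so that 0 is the brightness of that percentile. A level compares hearts for 1 probe and does not rank genes. In whole-heart RNA, fewer cells of a type and less RNA per cell cannot be told apart. On the 6 arrays 49.2% to 53.0% of the probes were well above background by the flag of the software, saturation was reached by no spot, and the 75th percentile was 453 to 544. The slide was the same for all, but its row 1 held HFD 1 and HFD 2 alone, next to HFD 3 and the ND arrays on row 2, so that diet and row overlap in part. All 7 cardiomyocyte markers were well above background in every heart, with mean levels of 8.22 to 8.26 in ND and 8.06 to 8.31 in HFD. Of 5 hepatocyte markers, Alb and Apoa1 were above background in no heart and the other 3 in all, with Serpina1a higher and Ttr lower in every HFD heart. Of 4 proximal tubule markers, Lrp2 and Kap were above background in no heart, Slc22a6 in all and Slc34a1 in 5. Of 7 erythroid markers, 6 were lower in every HFD heart than in every ND heart (mean levels 1.64 to 2.01 against 2.20 to 3.18). Over all probes tested, 11.1% were lower and 7.92% higher in every HFD heart, which also stands beside the marker counts that follow. HFD 1 was the only heart with Ucp1, the uncoupling protein of brown fat, well above background, while of the other 4 brown adipocyte markers Elovl3 was above background in no heart. Cidea (0.33) and Prdm16 (0.33, both as log2 fold change) of that list were higher in every HFD heart than in every ND heart. The same held for 6 probes of Acot1 to Acot5. Dio2, the remaining marker of that list, was well above background in all hearts and overlapped between the diets (-0.15, SE 0.28). HFD 2 stood apart by its atrial markers (mean level -0.40 against 2.39 to 5.77 in the other 5 hearts) and by its white adipocyte markers (-3.46 against -1.81 to -0.63), with Lep above background in no heart. Of the lists not yet given, the mean levels in ND and HFD were 6.95 to 7.03 and 6.92 to 7.06 for ventricular muscle, -1.89 to -1.75 and -1.82 to -0.49 for brown adipocytes, -3.91 to -2.77 and -4.24 to -3.22 for skeletal muscle, and -0.10 to 0.09 and -0.55 to -0.02 for macrophages. They were -3.88 to -3.68 and -4.16 to -3.93 for hepatocytes and -4.41 to -3.96 and -4.58 to -4.04 for proximal tubule. Acta1 and Myh1 of the 6 skeletal muscle markers were lower in every HFD heart than in every ND heart, and none was higher. The same held for Cd163 and Mrc1 of the 5 macrophage markers. Myh1 was well above background in 1 ND heart and in no HFD heart. The part of these marker differences in the thioesterase values was not tested, and the thioesterase values were also computed without HFD 1 and without HFD 2.

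Acot1 to Acot5, the first 5 of the 6 genes of the chromosome 12 group, were brighter in every HFD heart than in every ND heart by at least 1 probe each, whereas Acot6 and the members on other chromosomes were not. This held for 6 of the 13 member probes tested, against 7.92% of all 27590 probes tested. Of the 6, a probe of Acot3 (A_55_P2069907) entered the test through the HFD hearts alone, being well above background in 1 ND heart. It is also among the 8 probes of the median given below. Acot7, Acot11 and 1 of 2 probes of Acot8, 3 probes in all, were dimmer in every HFD heart, against 11.1% of all probes tested. The hearts of the 2 diets overlapped for the other 4. As the family was picked with this contrast in view, nothing is read from these shares. The median log2 fold change was 0.97 over the 8 tested probes of the chromosome 12 group, -0.19 over the 5 of the other members and -0.01 over all probes tested, 48.0% of which were higher in HFD.

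**Figure D1:**
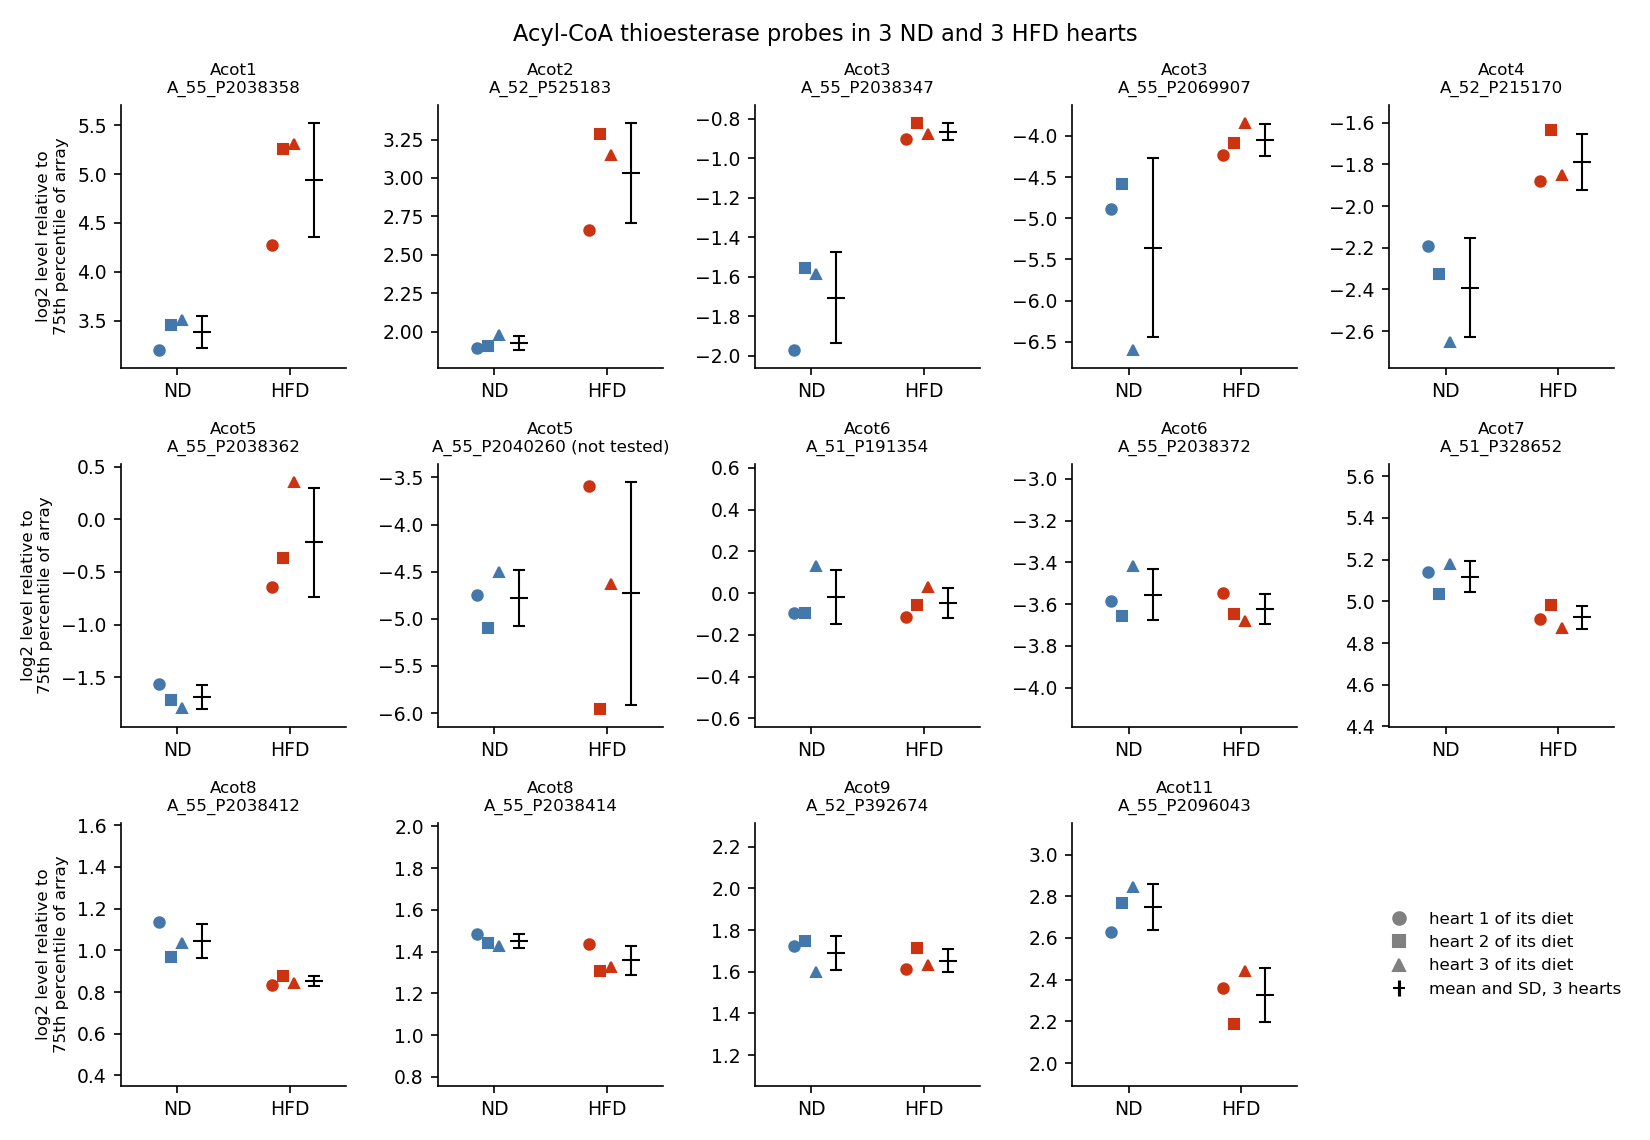
Log2 level of each of the 14 thioesterase probes (y axis, relative to the 75th percentile of the array) in 3 ND hearts (blue) and 3 HFD hearts (red), 1 panel per probe with its own axis. Symbols mark heart 1, 2 and 3 of a diet and the black bars are mean and SD. The red points lie above all blue points in 6 panels, those of Acot1, Acot2, Acot4, both of Acot3 and 1 of Acot5, and below all blue points for Acot7, Acot11 and 1 probe of Acot8.

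Acot1, the cytosolic enzyme for long-chain acyl-CoA, had the largest log2 fold change of the members. Its probe (A_55_P2038358, chr12:85358561-85358620, mm9) had levels of 3.20, 3.45 and 3.50 in ND 1, ND 2 and ND 3 and of 4.27, 5.26 and 5.30 in HFD 1, HFD 2 and HFD 3. HFD 2 and HFD 3 lay close together and HFD 1 between them and the ND hearts, and the lowest HFD heart was still 0.77 above the highest ND heart. In intensity units this was 4484, 5296 and 5407 in ND against 9945, 17340 and 21480 in HFD. The mean went from 3.39 ± 0.16 to 4.94 ± 0.58 (SD, n = 3 each), a log2 fold change of 1.56 (SE 0.29), or 2.95-fold. By increase it ranked 29 of all 27590 probes tested.

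Acot2, the enzyme of the mitochondrial matrix, had tightly grouped ND hearts. Its probe (A_52_P525183, chr12:85334071-85334130) gave 1.90, 1.90 and 1.98 in ND and 2.66, 3.29 and 3.15 in HFD. HFD 1 was again the lowest of its diet, 0.68 above the highest ND heart. The mean went from 1.93 ± 0.05 to 3.03 ± 0.33 (SD, n = 3 each), a log2 fold change of 1.11 (SE 0.17), or 2.15-fold. The spread between the HFD hearts was larger than between the ND hearts for both Acot1 and Acot2.

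Acot5, a peroxisomal enzyme for medium-chain acyl-CoA, had 2 probes that disagreed. The brighter one, whose letters are printed above (A_55_P2038362), read -1.57, -1.71 and -1.79 in ND and -0.64, -0.37 and 0.36 in HFD. HFD 3 stood out upward and all HFD hearts were at least 0.92 above the highest ND heart. The log2 fold change was 1.47 (SE 0.26), or 2.77-fold, from a mean of -1.69 ± 0.11 to -0.22 ± 0.52 (SD, n = 3 each). The other probe (A_55_P2040260, chr12:85416893-85416951) lies further along the transcript and was well above background in no ND heart and in 2 HFD hearts, so it was not tested. It gave -4.75, -5.09 and -4.50 in ND and -3.59, -5.96 and -4.63 in HFD, with the diets overlapping.

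Acot3, a peroxisomal enzyme for long-chain acyl-CoA, was read by 2 dim probes that both were brighter in HFD. The brighter of them (A_55_P2038347, chr12:85400452-85400511) had levels of -1.97, -1.56 and -1.59 in ND and -0.90, -0.82 and -0.88 in HFD. Here the HFD hearts were the tightly grouped ones, and the log2 fold change was 0.84 (SE 0.12), or 1.79-fold. The second probe (A_55_P2069907, printed above) gave -4.89, -4.58 and -6.60 in ND and -4.23, -4.08 and -3.84 in HFD. It was well above background in 1 ND heart and in 3 HFD hearts, its log2 fold change was 1.31 (SE 0.52), and this value rests on ND 3, since it was 0.69 without that heart. With the average of the 2 probes Acot3 had a log2 fold change of 1.07.

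Acot4, known to act on succinyl-CoA and other dicarboxylic acyl-CoA in peroxisomes, had the smallest difference of the 5 genes. Its probe (A_52_P215170, chr12:85384821-85384880) gave -2.19, -2.33 and -2.65 in ND and -1.88, -1.64 and -1.85 in HFD. The nearest hearts of the 2 diets were 0.31 apart. The mean moved from -2.39 ± 0.24 to -1.79 ± 0.13 (SD, n = 3 each), a log2 fold change of 0.60 (SE 0.14), or 1.52-fold.

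Acot6, the last gene of the row, known for branched-chain acyl-CoA such as those of phytanic and pristanic acid, had like levels on both diets. Its 2 probes (A_51_P191354, chr12:85451951-85452010, and A_55_P2038372, chr12:85450667-85450726) were well above background in all 6 hearts. The log2 fold changes were -0.03 (SE 0.09) and -0.07 (SE 0.09), and the hearts of the diets overlapped for both. Both values lay within 1 SE of 0.

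**Figure D2:**
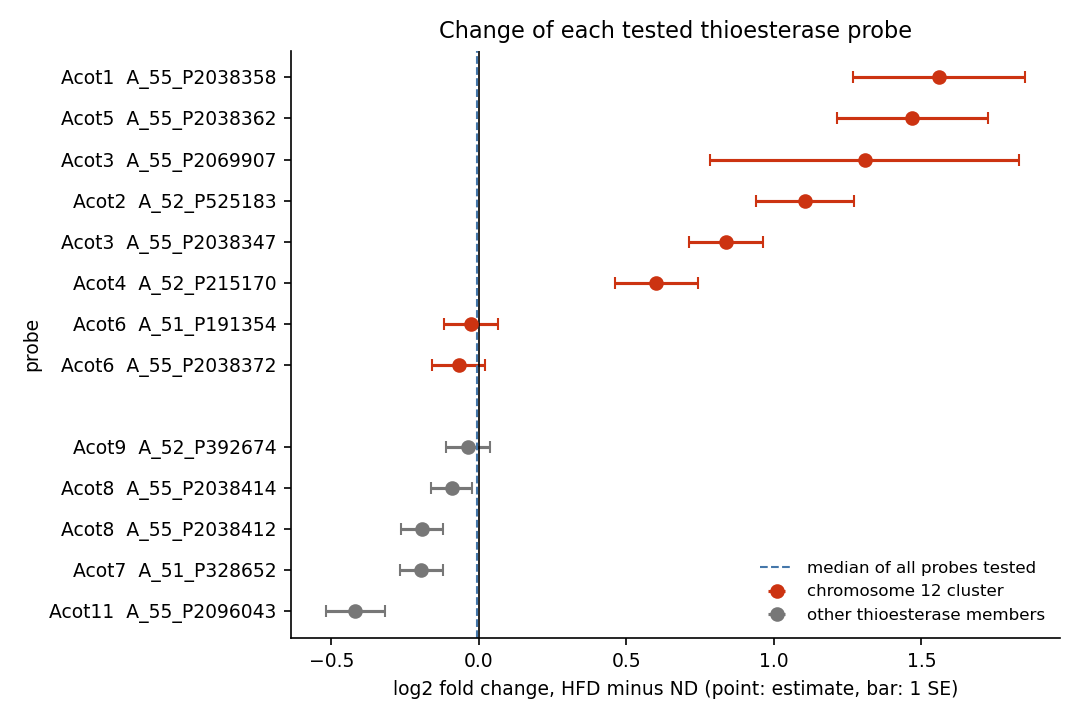
Log2 fold change (x axis, HFD minus ND, bars of 1 SE from the fit) of the 13 tested thioesterase probes, with the chromosome 12 group in red and the other members in grey. The dashed line is the median of all probes tested (-0.01). The 6 upper probes, of Acot1 to Acot5, run from 0.60 to 1.56, those of Acot6 lie at -0.03 and -0.07, and the other members run from -0.42 to -0.04.

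Among the members outside the group, the levels were lower or overlapping in HFD. Acot11, an enzyme with a lipid-binding START domain that is best known from brown fat (A_55_P2096043, chr4:106417185-106417244), had levels of 2.63, 2.77 and 2.85 in ND and 2.36, 2.19 and 2.44 in HFD. This was the largest decrease of the family, with a log2 fold change of -0.42 (SE 0.10), or 0.748 of the ND level. By decrease it ranked 1091 of all probes tested. Acot7, best known as the cytosolic thioesterase of brain (A_51_P328652, chr4:151645802-151645861), gave 5.14, 5.04 and 5.18 in ND and 4.91, 4.98 and 4.87 in HFD. The diets came within 0.05 of each other, and the log2 fold change was -0.20 (SE 0.07).

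Acot8, the broad peroxisomal thioesterase, had 2 probes on chromosome 2. For the one at chr2:164620497-164620556 (A_55_P2038412) ND 1, ND 2 and ND 3 read 1.13, 0.97 and 1.03 and the HFD hearts 0.83, 0.88 and 0.84, which did not overlap and differed by -0.19 (SE 0.07) on the log2 scale. For the other, at chr2:164618269-164618328 (A_55_P2038414), the hearts overlapped and the log2 difference was -0.09 (SE 0.07). Acot9, a mitochondrial enzyme encoded on the X chromosome (A_52_P392674, chrX:151731124-151731183), had overlapping hearts and a log2 fold change of -0.04 (SE 0.07). So the peroxisomal members were split, with Acot3, Acot4 and Acot5 brighter in HFD and Acot6 and Acot8 not, and so were the mitochondrial members Acot2 and Acot9.

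The 3 HFD hearts did not contribute alike. HFD 1 was the lowest HFD heart for all 6 probes that were brighter in HFD, while HFD 2 and HFD 3 were the highest for 3 each. Without HFD 1 the log2 fold changes were 1.90 for Acot1, 1.29 for Acot2, 0.85 and 1.40 for the 2 probes of Acot3, 0.65 for Acot4 and 1.68 for Acot5. Without HFD 2 they were 1.40, 0.98, 0.81 and 1.33, 0.53 and 1.55 in the same order. Within row 2 of the slide, which holds HFD 3 and the 3 ND hearts, they were 1.92, 1.22, 0.83 and 1.52, 0.54 and 2.05. Another background correction was normexp on the spot and local background brightness, with an offset of 50 added to every spot before the log. With it the dim probes gave less, with 0.61 and 0.23 for Acot3, 0.34 for Acot4 and 1.15 for Acot5. Acot1 gave 1.54 and Acot2 1.07. An added constant makes the log2 differences of dim probes smaller, and its part was not tested apart from the correction.

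The genes around the group were read to see whether the whole region differed. Within 300 kb of the group, 20 probes of 13 other named genes were on the array, and 17 probes of 10 genes were tested. Their log2 fold changes ran from -0.32 to 0.38 with a median of 0.01. For 3 of them every HFD heart was brighter, against 7.92% of all probes tested. These were both probes of Entpd5, an endoplasmic reticulum nucleotidase (0.31, SE 0.10, and 0.32, SE 0.07), and 1 of 3 probes of C130039O16Rik (0.38, SE 0.09). That probe of C130039O16Rik was dim, and well above background in 2 ND hearts and 3 HFD hearts. The other 2 probes of C130039O16Rik gave -0.03 and 0.06. For 1 of the 17, that of 2410016O06Rik, 40.5 kb before the group, every HFD heart was dimmer (-0.32, SE 0.07), against 11.1% of all probes tested. The single named probe that lies between the thioesterase probes, of 4732463B04Rik, was above background in no heart. None of the 17 reached the log2 fold change of Acot4 (0.60). A further 20 probes for non-coding or unnamed transcripts lie in the window, and of the 8 tested none was brighter and 1 was dimmer in every HFD heart.

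**Figure D3:**
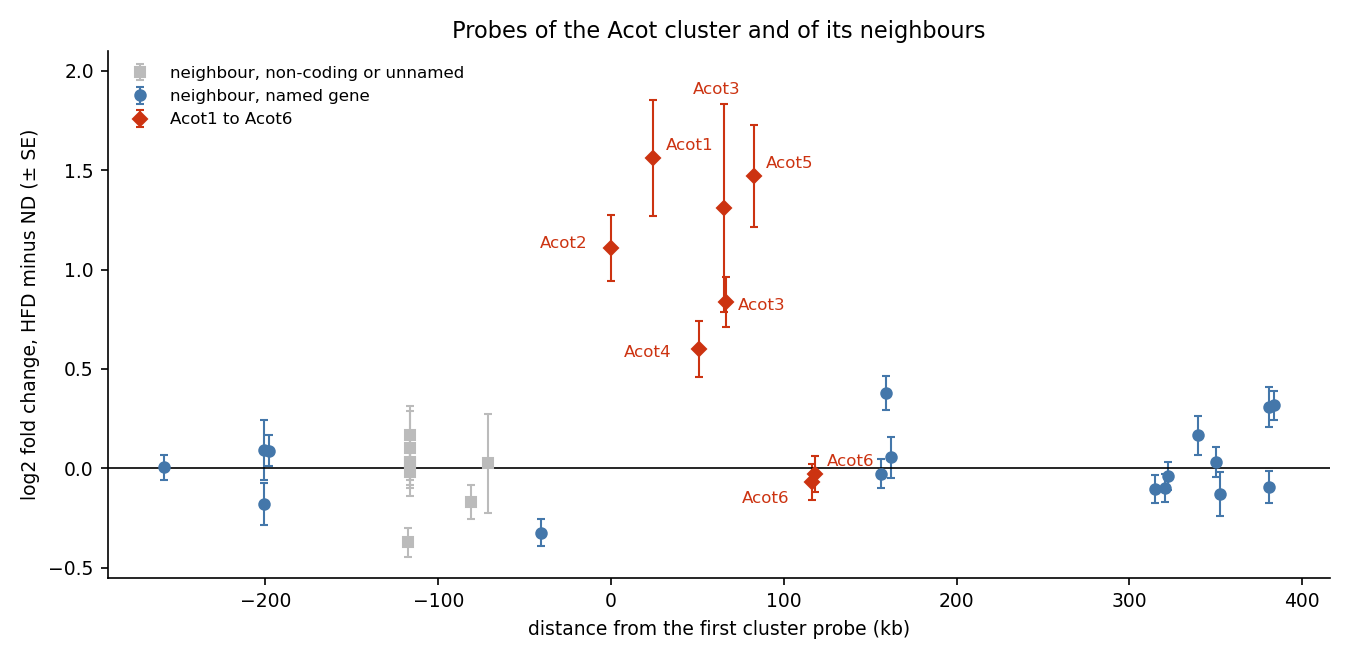
Log2 fold change (y axis, HFD minus ND, bars of 1 SE) of the tested probes on chromosome 12 against their distance from the first probe of the group in kb (x axis). Red diamonds are Acot1 to Acot6, blue circles are other named genes and grey squares non-coding or unnamed transcripts. Acot1 to Acot5 lie between 0.60 and 1.56, Acot6 lies near 0, and the named neighbours lie between -0.32 and 0.38.

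The genes most like Acot1 and Acot2 over the 6 hearts were found by Pearson's r of the levels among the 25924 probes that were measured and well above background on all arrays. A gene with several such probes was counted by its most correlated probe. For Acot1 they were Alg6 (r = 0.995), Cpt1a (0.992), Ptpn6 (0.990), Thra (0.989) and Acot2 (0.989). The Cpt1a probe counted here (A_55_P2057405) had a log2 fold change of 0.52 (SE 0.14). A brighter Cpt1a probe (A_51_P427674), the one used in the lists below, gave 0.23 (SE 0.11) with overlapping hearts. For Acot2 the genes at ranks 2 to 5 were Fbxo21 (0.996), Nbeal2 (0.995), Slc27a1 (0.994) and Hsd17b11 (0.993), with Acot1 at rank 11. Among the other members, Acot5, Acot3 and Acot4 had r of 0.943, 0.916 and 0.823 with Acot1, Acot6 had 0.07, Acot9 -0.20, and Acot7, Acot11 and Acot8 lay between -0.82 and -0.80. The 6 hearts fall into the 2 diets for these probes, so r mostly restates the difference between the diets and is given as a description.

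Genes that make or use the same acyl-CoA and coenzyme A were followed in 7 lists of 120 genes, of which 97 were tested with 1 probe each. In limma, with Benjamini-Hochberg adjustment over all 27590 probes tested, 0 of the 97 passed against 4 of all probes (0.0145%). Before adjustment 27 had a p below 0.05, with 22 higher in HFD, where 5.24% of all probes were, and 5 lower, where 6.63% of all probes were. By the methods' t-test 30 had an unadjusted p below 0.05 and 0 passed the adjustment. The values of single list genes that follow did not pass the adjustment and are descriptions.

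The other thioesterases, outside the 10 members, differed little. Of 8 tested, none was higher and 1 was lower at an unadjusted p below 0.05, namely Ppt2, a lysosomal thioesterase (-0.18, SE 0.06), and the median log2 fold change was -0.03. Acot13, a small mitochondrial thioesterase, had levels of 8.25, 8.18 and 8.02 in ND and 7.89, 8.12 and 7.88 in HFD, which overlap. Acot12 and Baat, known from liver, and Them5 and Olah were not tested because none was well above background in all hearts of a diet.

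The acyl-CoA synthetases run the opposite reaction. Of 13 tested, 2 were higher at an unadjusted p below 0.05 and none lower, with a median of 0.02. These were Slc27a1, a fatty acid transporter with synthetase activity (0.52, SE 0.08), and Acsm5, a medium-chain synthetase (0.59, SE 0.16). Among 11 genes of coenzyme A synthesis and breakdown, Slc25a42, the mitochondrial carrier of coenzyme A (0.43, SE 0.07), and Nudt7, a peroxisomal coenzyme A hydrolase (0.29, SE 0.09), were higher and Nudt8, its mitochondrial counterpart (-0.20, SE 0.06), was lower at that level, with a median of -0.05.

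The acylcarnitine shuttle and mitochondrial beta-oxidation held 9 genes higher and none lower at an unadjusted p below 0.05 of 23 tested, with a median of 0.17. By sign alone 19 were higher and 4 lower. Of the 23, 11 were higher in every HFD heart than in every ND heart, against 7.92% of all probes tested. In the same way 2 were lower, against 11.1% of all probes tested. The 6 with the largest difference were Decr1, a reductase for unsaturated acyl-CoA (0.48, SE 0.10), the carnitine acetyltransferase Crat (0.48, SE 0.07), the trifunctional protein subunit Hadha (0.44, SE 0.11), the acylcarnitine carrier Slc25a20 (0.44, SE 0.07), the carnitine transporter Slc22a5 (0.36, SE 0.06) and the carnitine palmitoyltransferase Cpt1b (0.35, SE 0.10). Of 17 peroxisomal genes 4 were higher and 1 lower at an unadjusted p below 0.05, and 11 were higher and 6 lower by sign alone, with a median of 0.05. Those past that p were Pex11a, a factor of peroxisome division (0.67, SE 0.12), Ech1 (0.44, SE 0.13), the importer Abcd3 (0.23, SE 0.08) and Hsd17b4 (0.21, SE 0.08), and the importer Abcd2 (-0.86, SE 0.25), which was well above background in 3 ND hearts and 1 HFD heart.

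The list of other PPAR alpha targets had 5 of 17 genes higher and none lower at an unadjusted p below 0.05, and 16 higher and 1 lower by sign alone, with a median of 0.27. Among the 5 were the uncoupling protein Ucp3 (0.50, SE 0.18), Slc25a20, which the shuttle list also holds, Mlycd, the malonyl-CoA decarboxylase (0.28, SE 0.10), and the lipid droplet protein Plin2 (0.27, SE 0.08). Of 13 nuclear receptors and co-regulators, Ppargc1b was higher (0.60, SE 0.14) and Lpin1 (-0.46, SE 0.08) and Ppard (-0.17, SE 0.06) were lower at that p, with a median of -0.06.

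**Figure D4:**
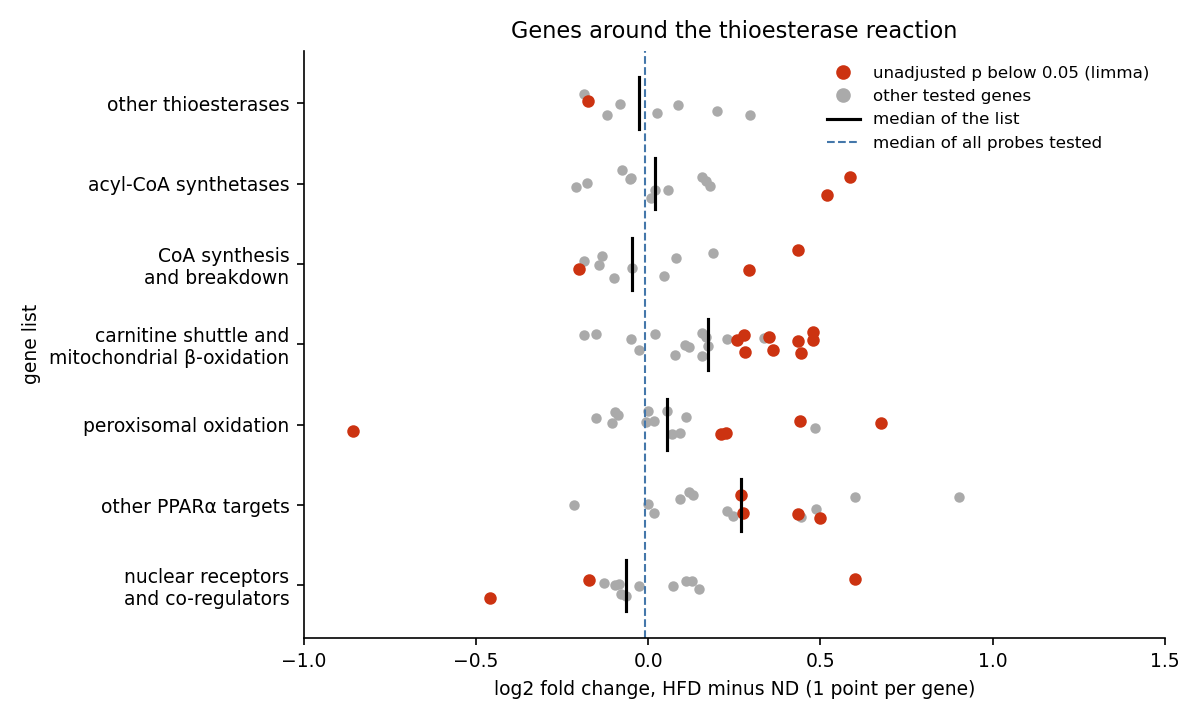
Log2 fold change (x axis, HFD minus ND) of tested genes of the 7 lists, 1 point per gene (1 gene of the other PPAR alpha targets is not drawn), with those at an unadjusted p below 0.05 in limma in red. Black bars are list medians over all tested genes and the dashed line is the median of all probes tested (-0.01). The medians run from -0.06 for nuclear receptors to 0.27 for the other PPAR alpha targets.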

How the data were processed

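The authors deposited 1 scanner file per array, read with Agilent Feature Extraction (10.7.1.1 per the file headers), with linear intensity per spot after subtraction of background and spatial trend and no normalization between arrays. The log2 table that the authors deposited beside them, whose making is not given in the sources used here, followed a quantile normalization closely and served as an alternative. Positions are mm9 and gene names those of the design.

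Outlier spots (127 to 190 per array) and controls were left out, spots of a probe were averaged, and log2 intensity minus the 75th percentile of the array was fitted in R 4.3.3 with limma 3.58.1 (two-sided, functions lmFit and eBayes), files being read by data.table (version 1.17.8) and jsonlite 2.0.0 and robust fits by statmod 1.5.0. To be tested, a probe had to be well above background in all hearts of 1 diet or of both, and measured in 2 or more hearts per diet. Probe and promoter letters were compared with edlib 1.3.9.post1 and pandas 2.3.3 in Python 3.11.15, and figures were drawn with matplotlib 3.10.9. The fit was tested on simulated data.

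The members, the gene lists and the rules were chosen with earlier results of these data known. All 14 member probes are reported. From each list, reduced to the brightest probe per gene, the genes named are those at an unadjusted p below 0.05, at most the 6 with the largest change, and 3 list symbols were matched through synonyms. Acot13, the thioesterases not tested, single markers and the neighbours without overlap are named in addition, after their values were seen. For Acot1 and Acot2 the 5 most correlated genes are named. The separate results of 2 genes these rules name are not reported here. The 10 marker lists cover cardiomyocytes, ventricular and atrial muscle, white and brown adipocytes, erythroid cells, skeletal muscle, macrophages, hepatocytes and proximal tubule. A p-value sets the difference between the diet means against the spread between these hearts, which limma moderates by the spread of all probes tested. Having 3 hearts per diet limits the precision of every mean.

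The alternatives were quantile normalization, normexp (offset 50), the authors' log2 table, dim probes kept, or all 6 hearts required to be well above background, outlier spots kept, an intensity trend with robust variances, the methods' t-test, the replicate number as a block, the slide row as a term, row 2 alone, each heart left out in turn, and the average of the probes of a gene.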

Additional observations from a re-analysis of the deposited data

How the results depend on the processing

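The count of 6 thioesterase probes with every HFD heart above every ND heart was 6 with quantile normalization, normexp, the authors' table, outlier spots kept and dim probes kept, and 5 where all 6 hearts had to be well above background, as 1 probe of Acot3 drops out of the test. Leaving out hearts, or another model on the same levels, could not lower it. Across the alternatives the log2 fold change ran from 1.38 to 1.92 for Acot1, 0.98 to 1.29 for Acot2, 0.61 to 1.07 and 0.23 to 1.70 for the probes of Acot3, 0.34 to 0.70 for Acot4 and 1.15 to 2.05 for Acot5, and only that of Acot6 (A_51_P191354) changed sign, from -0.07 to 0.05. The replicate numbers did not pair the hearts (correlations of deviations of -0.158, 0.157 and 0.212), and with the replicate block 0 probes passed the adjustment.

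The 4 adjusted calls over all probes became 81 with an intensity trend and robust variances, 40 with normexp, 8 by the methods' t-test, 2 by quantile normalization and by the authors' table, 0 without a filter on dim probes, 0 with the slide row as a term, and 0 to 5 with a heart left out (0 without ND 1, HFD 2 or HFD 3). Adjusted list genes went from 0 to 4 with the trend (among them Crat, Slc25a42 and Slc27a1), 1 with normexp and 0 to 1 with a heart left out (Fgf21, not tested with all 6 hearts). With the slide row as a term 2136 probes (against 3275) and 15 list genes (against 27) had an unadjusted p below 0.05, and with a heart left out 2182 (without ND 1) to 3560 probes and 19 to 32 list genes. Probes without overlap went from 5236 to 7072 to 9365 with a heart left out and 16198 in row 2 alone, where fewer hearts overlap less often. The median of the neighbours was 0.0444 with no filter on dim probes, and -0.0126 to 0.0166 with a heart left out. The causes of the other shifts were not tested. The tested probes of Acot3, Acot4 and Acot5 are dim, with mean ND levels from -5.36 to -1.69, and signal over background limits them.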
